A study of Mus musculus with 23 samples.

Results

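Mitochondria take up calcium through the uniporter, a channel of the inner membrane whose pore is formed by the product of Mcu. The uniporter needs Smdt1, which encodes the small subunit EMRE, and is gated by calcium-binding partners of which Micu2 is one, while Ccdc109b, now called Mcub, encodes a pore subunit that lowers its activity. Calcium leaves the matrix through Slc8b1, the sodium-calcium exchanger NCLX, and Letm1 encodes an inner membrane protein of cation and proton exchange. Ions and metabolites cross the outer membrane through the porins Vdac1, Vdac2 and Vdac3. In brown adipose tissue (BAT), which makes heat by uncoupled respiration, matrix calcium has been studied as a possible link between adrenergic signals and fuel oxidation.

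These 9 genes were taken by symbol from a table of 14651 genes, and all 9 were present in it. RNA was sequenced from the BAT of 23 male C57BL/6 mice aged 8 to 12 weeks. The 4 groups were Mcu[fl/fl] mice at room temperature (control RT, n = 6), Mcu[fl/fl] mice at 4°C (control 4°C, n = 5), Mcu[fl/fl];Ucp1-Cre mice at room temperature (BAT-Mcu-KO RT, n = 6) and the latter genotype at 4°C (BAT-Mcu-KO 4°C, n = 6). All groups thus carried the floxed allele, in which exon 2 of Mcu lies between LoxP sites, and Cre was driven by the Ucp1 promoter, so cells of BAT that do not express Ucp1 keep an intact Mcu. The cold mice spent 6 h at 4°C, housed singly and, by the stated protocol, without food unless otherwise indicated. Where food was withheld, fasting and cold cannot be told apart. Only the BAT-Mcu-KO mice carried Ucp1-Cre, so loss of Mcu and presence of the transgene cannot be told apart. The questions were whether these genes changed with cold, whether they differed between genotypes, and whether the response to cold did.

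Values are normalized counts, read numbers scaled by the size factor of each mouse. Depth was 7129271 to 21006347 reads a mouse. All 8 brown adipocyte markers listed, Ucp1 and Cidea among them, were detected, with sums of 195018 to 341496. The sum of 12 skeletal muscle markers, all in the table and none at 0 throughout, was 32.8 to 8530 in control RT, 14.9 to 44718 in control 4°C, 21.4 to 62909 in BAT-Mcu-KO RT and 56.7 to 11332 in BAT-Mcu-KO 4°C mice. It exceeded 40000 in 5 libraries, which were control 4°C mice 2 and 5 and BAT-Mcu-KO RT mice 3, 4 and 6. For the 9 genes and the lists, calls that changed without these 5 libraries are given below. That setting kept control 4°C mice 1, 3 and 4 and BAT-Mcu-KO RT mice 1, 2 and 5. Fewer mice also give less power, and its part in the lost calls was not tested. In a whole tissue, fewer cells of a type and less RNA per cell cannot be told apart.

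The deleted exon is shown because it defines the BAT-Mcu-KO allele. It is 70 bases long, at chr10:59491087-59491156 on the minus strand (mm10, the GRCm38 assembly), and is coding. In the line that follows the exon is in capitals, with 30 bases of exon 1 before it and 30 bases of exon 3 after it.

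Mcu exon 2: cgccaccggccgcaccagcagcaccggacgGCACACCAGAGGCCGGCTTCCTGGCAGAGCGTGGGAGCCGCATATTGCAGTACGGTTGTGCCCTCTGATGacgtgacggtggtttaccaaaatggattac

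The exon makes up 2.44% of the 2872 bases of the 8-exon transcript, so reads from a transcript without it are still counted for Mcu. The counts are of the whole gene and do not measure exon 2 by itself. Its length is not a multiple of 3. Reading on from exon 1 into exon 3 gave 50 codons before the first stop, against 350 codons in the intact frame.

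Mcu was far lower in BAT-Mcu-KO than in control mice at both temperatures. The normalized count was 81.4 to 136 with a median of 107 in control RT mice, and 15.2 to 42.4 with a median of 38.1 in BAT-Mcu-KO RT mice. At 4°C the 5 control mice had 70.8, 86.5, 127, 132 and 118, and the 6 BAT-Mcu-KO mice had 24.0 to 39.9 with a median of 36.3. Every BAT-Mcu-KO mouse lay below every control mouse of its temperature. Relative to the control mean of the same temperature, BAT-Mcu-KO mice held 32.0% ± 9.16 at RT and 31.7% ± 6.18 at 4°C (SD, n = 6 each). The log2 fold change was -1.66 ± 0.22 (SE) at RT (limma, adjusted p = 0.0010) and -1.61 ± 0.23 at 4°C (adjusted p = 0.00367, limma). Mcu thus went with the labels in all 12 BAT-Mcu-KO libraries. What remained rested on 17 to 57 reads a mouse.

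**Figure D1:**
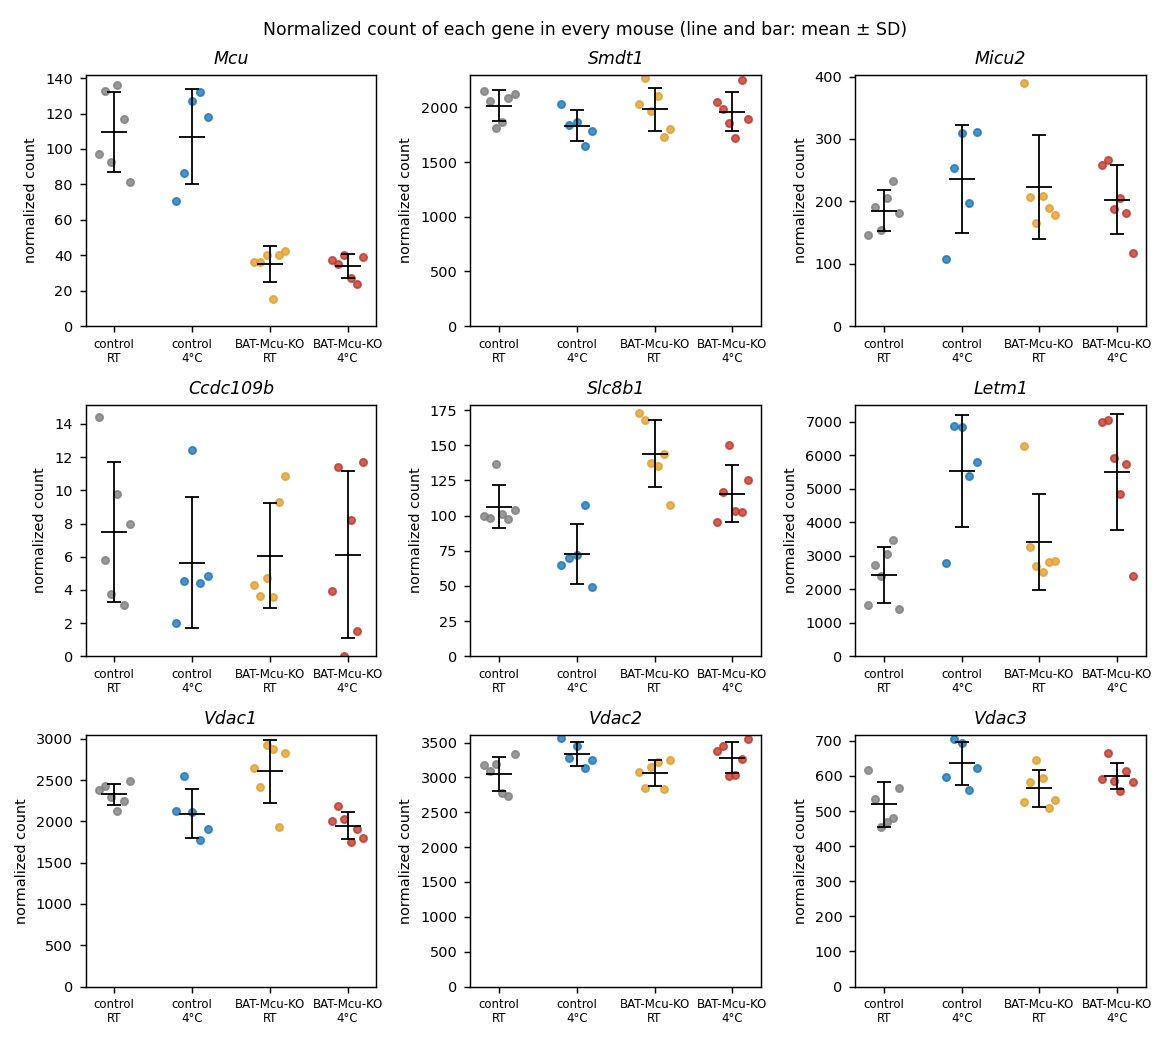
Normalized count (vertical axis) of each of the 9 genes in every mouse, by group, with the mean and SD of the group as line and bar. Mcu was the gene whose genotypes did not overlap, at 81.4 to 136 in control RT mice and 15.2 to 42.4 in BAT-Mcu-KO RT mice, while Letm1 was higher in most mice at 4°C.

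In the GRCm38 assembly the uniporter genes are Mcu at chr10:59446984-59616692, Smdt1 at chr15:82338959-82349091, Micu2 at chr14:57916261-57999262 and Ccdc109b at chr3:129914960-129970206. The exchangers are Slc8b1 at chr5:120511168-120534024 and Letm1 at chr5:33739673-33782817. The porins are Vdac1 at chr11:52360860-52389397, Vdac2 at chr14:21825238-21845879 and Vdac3 at chr8:22577075-22593813.

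The 9 genes spanned more than 2 orders of magnitude when counts were divided by the length of annotated exon. In control RT mice Smdt1 stood highest, at 1363 ± 96.0 normalized counts per kilobase (SD, n = 6, as for the levels that follow). Vdac1 was next at 889 ± 50.1 and Vdac2 followed at 640 ± 51.0. Letm1 was at 252 ± 85.9 per kilobase and Vdac3 at 95.9 ± 11.8. The uniporter's pore gene was therefore far below its small subunit and below all 3 porins. Micu2 was at 60.1 ± 10.5 per kilobase and Slc8b1 at 30.7 ± 4.40. Mcu was at 15.8 ± 3.24 per kilobase and Ccdc109b at 5.67 ± 3.21. In this order each gene exceeded the next in 6 of 6 control RT mice. No 2 neighbours overlapped in range.

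The order depended in part on the length used. With the longest annotated transcript in place of all exons, Vdac2 was at 1497 and Vdac1 at 1151 normalized counts per kilobase, the reverse of the order above. By that length Mcu, at 38.1, exceeded Slc8b1, at 36.6, in 3 of 6 control RT mice. The top place of Smdt1 and the last place of Ccdc109b did not move with it. Smdt1 shares 245 bases of exon, 16.6% of its total, with Pheta2 on the same strand, and reads there could belong to either gene.

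Per kilobase, Smdt1 exceeded Mcu 89.8 ± 21.2 times in control RT mice and 86.6 ± 30.9 times in control 4°C mice. With Mcu reduced, the same ratio was 306 ± 171 in BAT-Mcu-KO RT mice and 284 ± 81.4 in BAT-Mcu-KO 4°C mice. Micu2 exceeded Mcu 3.88 ± 0.72 times in control RT mice and 16.2 ± 9.06 times in BAT-Mcu-KO RT mice. With the longest transcript as length these Micu2 ratios were 2.13 ± 0.39 and 8.86 ± 4.97. How Mcu stood to Ccdc109b in BAT-Mcu-KO mice depended on the length. Per kilobase of all annotated exon, Mcu was the higher of these genes in 3 of 6 BAT-Mcu-KO mice at each temperature, against 6 of 6 control RT and 5 of 5 control 4°C mice. Per kilobase of the longest transcript, Mcu was the higher in every mouse of all 4 groups, with means of 12.2 and 4.60 in BAT-Mcu-KO RT mice and 11.8 and 4.65 in BAT-Mcu-KO 4°C mice.

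**Figure D2:**
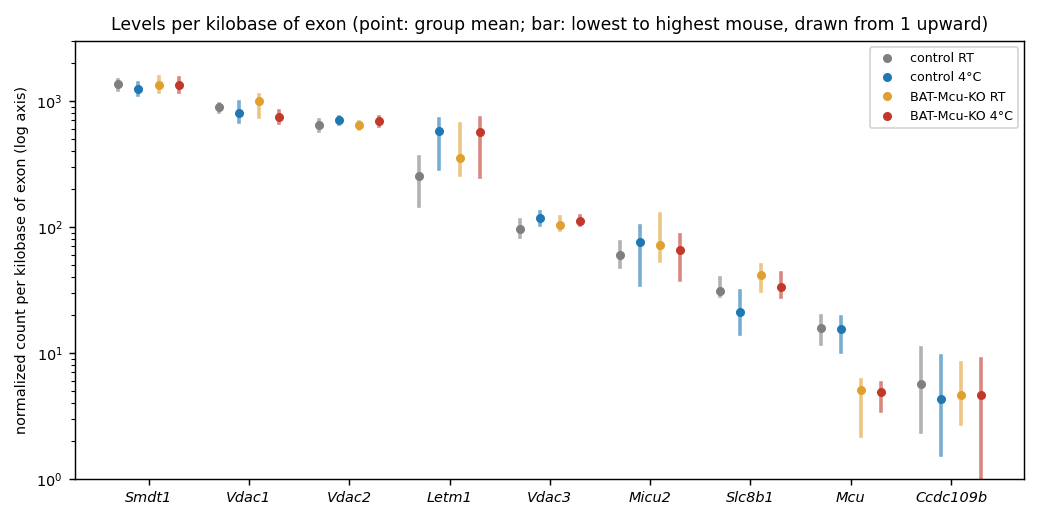
Normalized count per kilobase of annotated exon on a log axis, with the 9 genes ordered by their mean in control RT mice. Points are group means and bars run from the lowest to the highest mouse, the axis starting at 1, so that Smdt1 stands at 1363 and Ccdc109b at 5.67 in control RT mice, and Mcu in BAT-Mcu-KO mice overlaps Ccdc109b by this length, though not mouse by mouse with the longest transcript (6 of 6 mice higher at each temperature).

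Cold changed 3 of the 9 genes in control mice. Letm1 and Vdac3 rose and Slc8b1 fell. Their number under quantile normalization and scaling to the 75th percentile was 4, of which 1 was higher and 3 lower in each. With a correction for transcript length it was also 4, Vdac2 (higher) being added. In all, 46.0% of the 14651 genes were called in this comparison at an adjusted p under 0.05 (limma), so 3 of 9 is not above the share of all genes. Of all genes, 22.3% were called higher and 23.7% lower. With quantile normalization 45.7% were called (21.1% higher, 24.6% lower), and with scaling to the 75th percentile 47.3% (18.0% higher, 29.2% lower). With the correction for length 46.7% were called (23.4% higher, 23.3% lower). The median log2 fold change of the 9 genes was -0.05, and that of all genes -0.02. In BAT-Mcu-KO mice, where 43.3% of all genes were called (21.4% higher, 21.9% lower), 2 of the 9 changed with cold: Letm1 rose and Vdac1 fell. The median log2 fold change of the 9 there was -0.02, as was that of all genes. With the correction for length 3 of 9 were called there, Vdac2 (higher) being added, beside 44.9% of all genes. Without the 5 muscle-rich libraries 1 of 9 was called in control mice, Letm1, beside 38.5% of all genes. In BAT-Mcu-KO mice 1 of 9 was called without them, Slc8b1, beside 32.1% of all genes.

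Letm1 showed the largest fitted change with cold among the 9 genes. Its normalized count was 1403 to 3473 with a median of 2556 in control RT mice, and 2785, 6872, 6839, 5376 and 5785 in the 5 control 4°C mice. The 4 cold control mice other than mouse 1 lay above every control RT mouse. The mean was 2.28 times as high at 4°C, and the log2 fold change was 1.19 ± 0.29 (limma, adjusted p = 0.00124). In BAT-Mcu-KO mice Letm1 was 2510 to 6275 with a median of 2824 at RT and 2401 to 7049 with a median of 5830 at 4°C. Mouse 1 at RT was high, at 6275 against 2510 to 3273 in the other 5, and mouse 6 at 4°C was low, at 2401. The log2 fold change was 0.69 ± 0.27 (limma, adjusted p = 0.0421). This call was near the threshold and was lost when any 1 of 10 BAT-Mcu-KO libraries was left out, those other than mouse 1 at RT and mouse 6 at 4°C, where the log2 fold change was 0.60 to 0.71. The call was also lost with quantile normalization (0.53), with scaling to the 75th percentile (0.64) and without the variance trend in the fit (0.69), at limma adjusted p = 0.133, 0.0576 and 0.0672. Without mouse 1 at RT the value was 0.88, and without mouse 6 at 4°C it was 0.91. Without the 5 muscle-rich libraries it was 0.42 (limma, adjusted p = 0.372) in BAT-Mcu-KO mice and 1.02 (adjusted p = 0.0211, limma) in control mice.

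Slc8b1, the exchanger through which calcium leaves the matrix, fell with cold in control mice. It was 97.3 to 137 with a median of 100.4 at RT, and 64.7, 69.8, 72.2, 107 and 48.9 in the 5 mice at 4°C. The 4 cold mice other than mouse 4 lay below every control RT mouse. The log2 fold change was -0.58 ± 0.17 (limma, adjusted p = 0.00603). In BAT-Mcu-KO mice the count was 108 to 173 with a median of 141 at RT, and 95.3 to 150 with a median of 110.0 at 4°C. There the log2 fold change was -0.32 ± 0.16 and did not pass the test (limma, adjusted p = 0.112), with an interval of -0.64 to 0.01. Without the muscle-rich libraries the order of these calls was exchanged. The control value was then -0.40 (limma, adjusted p = 0.0824) and the BAT-Mcu-KO value -0.49 (adjusted p = 0.0409, limma).

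The porins moved little and not together. Vdac1, the most studied of them and a partner of hexokinases, fell with cold in BAT-Mcu-KO mice. There it was 1934 to 2930 with a median of 2738 at RT and 1755 to 2192 with a median of 1958 at 4°C. The mean at 4°C was 0.75 of that at RT, but mouse 5 at RT lay within the cold range. The log2 fold change was -0.41 ± 0.10 (limma, adjusted p = 0.00105). In control mice Vdac1 was 2124 to 2486 with a median of 2338 at RT and 2130, 2554, 2113, 1776 and 1905 in the 5 mice at 4°C. The log2 fold change there was -0.16 ± 0.10 (limma, adjusted p = 0.196). With quantile normalization this control value was -0.34 and passed the test (limma, adjusted p = 0.00163), and so it did with scaling to the 75th percentile (-0.27, adjusted p = 0.0270 in limma).

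BAT-Mcu-KO RT mice 3, 4 and 6, which had the highest Vdac1 counts of the 23 mice (2833 to 2930), were also among the 5 libraries rich in muscle markers. Without those 5 libraries the change of Vdac1 with cold was -0.25 in BAT-Mcu-KO mice (limma, adjusted p = 0.0727) and -0.22 in control mice (adjusted p = 0.110, limma). Over all 23 mice, the deviation of Vdac1 from its group mean had a Pearson r of 0.40 with that of the muscle sum and of -0.73 with that of 6 endothelial markers. Points share a library and its depth in such a correlation. The sum of the endothelial markers, 6 of 6 in the table and none at 0 throughout, was itself higher in the cold, at 6677 to 11288 in control 4°C and 6087 to 10259 in BAT-Mcu-KO 4°C mice, than at RT, where it was 3932 to 5173 and 3801 to 5325. Their part in the result was not tested.

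Vdac3 rose with cold in control mice. It was 454 to 618 with a median of 507 at RT and 597, 704, 694, 560 and 622 in the 5 mice at 4°C, so 3 of 5 cold mice lay above every RT mouse. The log2 fold change was 0.29 ± 0.09 (limma, adjusted p = 0.0105). It was 0.19 with quantile normalization and 0.18 with scaling to the 75th percentile, and 0.25 without the muscle-rich libraries, and passed the test in none of these (adjusted p = 0.0884, 0.107 and 0.0843, limma). In BAT-Mcu-KO mice Vdac3 was 507 to 645 at RT and 558 to 666 at 4°C, with a log2 fold change of 0.09 ± 0.09 (limma, adjusted p = 0.435). A pseudogene copy, Vdac3-ps1 on chromosome 13, has a row of its own in the table, and reads could be split between them.

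Vdac2, which had the highest counts of the 3 porins before division by length, was 2733 to 3335 in control RT mice and 3137 to 3568 in control 4°C mice. Its log2 fold change with cold was 0.13 ± 0.07 in control mice and 0.10 ± 0.07 in BAT-Mcu-KO mice (limma, adjusted p = 0.135 and 0.242). With a correction for transcript length the changes were 0.23 and 0.16 and both passed the test (limma, adjusted p = 0.00177 and 0.0210). With quantile normalization they were near 0, at -0.0034 and -0.042. Reads were counted irrespective of strand, and 25 bases of Vdac2 exon overlap Comtd1 on the other strand.

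As shares of the VDAC total per kilobase, Vdac1 made up 54.7% ± 1.08 (SD, n = 6) in control RT mice and 49.3% ± 2.92 (n = 5) in control 4°C mice. In BAT-Mcu-KO mice its share was 56.9% ± 2.61 (n = 6) at RT and 48.2% ± 2.22 (n = 6) at 4°C. The Vdac2 share was 39.4% ± 1.14 at RT and 43.4% ± 2.94 at 4°C in control mice, and 37.1% ± 2.35 and 44.7% ± 2.25 in BAT-Mcu-KO mice. Vdac3 held 5.90% ± 0.52 and 7.26% ± 0.44 in control mice, and 6.01% ± 0.55 and 7.17% ± 0.21 in BAT-Mcu-KO mice. In both genotypes the mean share of Vdac1 was thus lower in the cold and those of Vdac2 and Vdac3 higher. With the longest transcript as length, Vdac1 held 41.6% ± 1.09 at RT and 36.6% ± 2.86 at 4°C in control mice, a lower share that moved the same way. The shares are a description and were not tested, since the 3 add up to a fixed total.

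**Figure D3:**
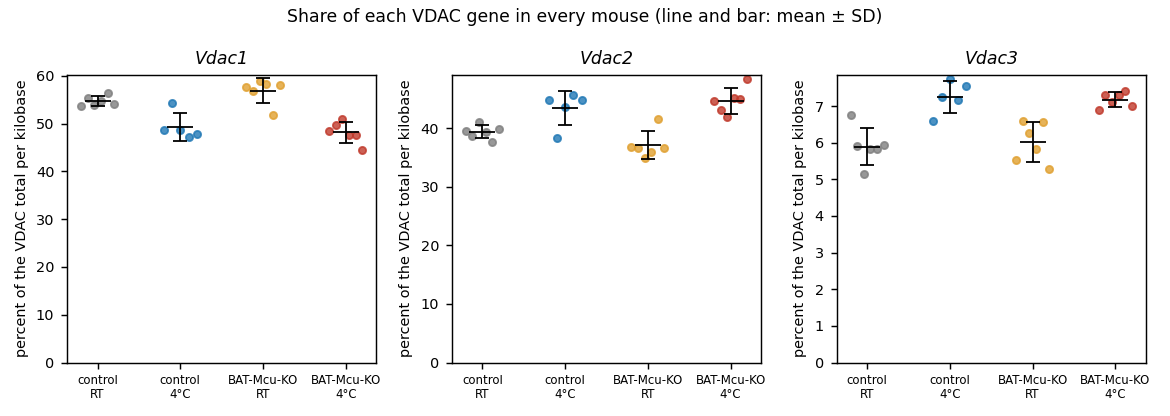
Share of each porin gene in the VDAC total, in percent of normalized counts per kilobase of annotated exon, in every mouse, with group mean and SD as line and bar. The mean share of Vdac1 was 54.7% at RT and 49.3% at 4°C in control mice, and 56.9% and 48.2% in BAT-Mcu-KO mice.

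The other uniporter genes did not pass the test with cold in either genotype. Mcu itself had a log2 fold change of -0.05 ± 0.23 in control mice, with an interval of -0.53 to 0.43 (limma, adjusted p = 0.880). Smdt1, at 1813 to 2149 normalized counts in control RT mice and 1652 to 2035 in control 4°C mice, had -0.14 ± 0.08 (limma, adjusted p = 0.180). With quantile normalization this became -0.33 for controls and -0.20 for the BAT-Mcu-KO, and both passed the test (limma, adjusted p = 7.1e-04 and 0.0265). With scaling to the 75th percentile the control value was -0.24 and passed too (limma, adjusted p = 0.0184). With the correction for transcript length the values were 0.02 and 0.02. The call thus depended on the scaling, and the sign on the correction for length. Micu2 had 0.27 ± 0.25 in control mice and -0.12 ± 0.23 in BAT-Mcu-KO mice (limma, adjusted p = 0.399 and 0.714), both with intervals that span 0. Ccdc109b was at 0 to 14.4 normalized counts, from 0 to 19 reads a mouse, and its interval in control mice ran from -1.54 to 0.79. A fall or a rise within these bounds is thus not excluded. The parts of depth and of the spread between mice in this width were not tested. The 1 mouse with 0 reads, BAT-Mcu-KO 4°C mouse 3, allows for up to 3 reads, for counting error only.

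**Figure D4:**
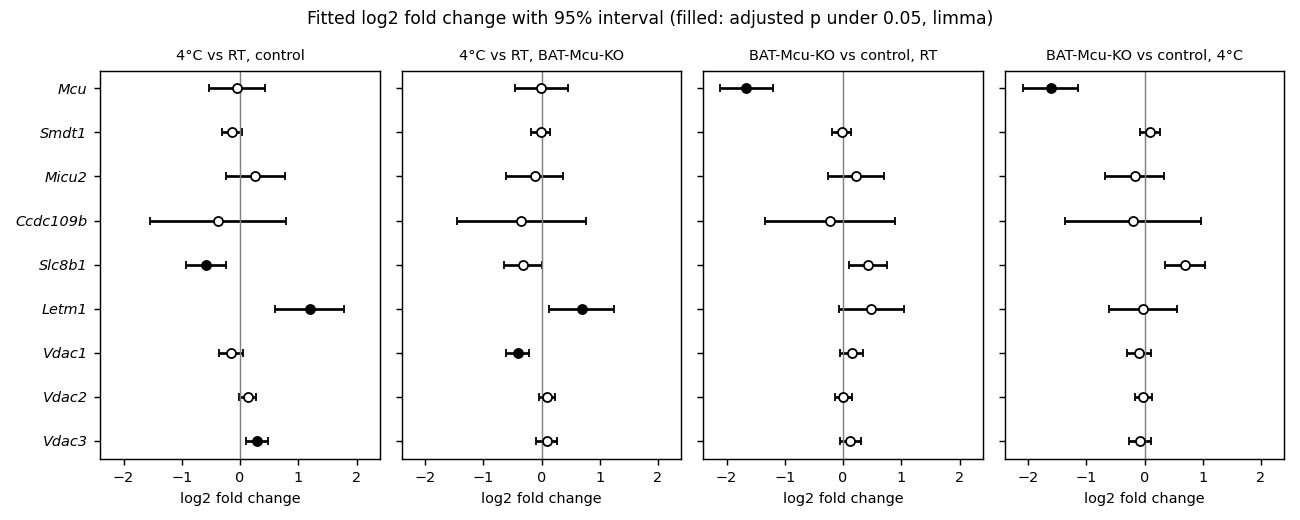
Fitted log2 fold change (horizontal axis) of the 9 genes in the 4 comparisons, with 95% intervals. Filled points passed an adjusted p under 0.05 in limma and open points did not, the filled ones being Letm1, Slc8b1 and Vdac3 for cold in control mice, Letm1 and Vdac1 for cold in BAT-Mcu-KO mice, and Mcu for genotype at both temperatures.

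Between genotypes, 1 of the 9 genes was called at each temperature, and it was Mcu. Of all genes, 0.0478% were called at RT and 0.0751% at 4°C in limma, beside 0.0478% and 0.0410% in edgeR and 0.137% and 0.157% in DESeq2, where Mcu was again the 1 gene of the 9. The groups did not overlap for 1 of the 9 genes at each temperature, again Mcu, beside 0.218% of all genes at RT and 0.683% at 4°C. Of the genes of the other uniporter subunits, only Smdt1 had narrow intervals, and a change of Micu2 or Ccdc109b is not excluded. For Smdt1 the log2 fold change between genotypes was -0.03 at RT with an interval of -0.19 to 0.13, and 0.10 at 4°C with an interval of -0.07 to 0.26. For Micu2 it was 0.22 at RT with an interval of -0.27 to 0.70, and -0.17 at 4°C with an interval of -0.67 to 0.34. Ccdc109b had -0.22 at RT, with an interval of -1.33 to 0.88, and -0.20 at 4°C, with one of -1.36 to 0.97.

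Among the 9, Slc8b1 was the gene next to Mcu by unadjusted p in both comparisons (0.0120 at RT and 3.3e-04 at 4°C), and it did not pass the correction over all genes in either. At RT it was 97.3 to 137 in control mice and 108 to 173 in BAT-Mcu-KO mice, and 4 of 6 BAT-Mcu-KO mice lay above every control mouse. The log2 fold change was 0.43 ± 0.16 (limma, adjusted p = 0.940). At 4°C it was 48.9 to 107 in control and 95.3 to 150 in BAT-Mcu-KO mice, where 3 of 6 lay above every control mouse. The mean was 1.59 times that of control mice, and the log2 fold change was 0.69 ± 0.17 (limma, adjusted p = 0.211). When each of the 23 mice was left out in turn, the 4°C value was 0.56 to 0.84 (limma, adjusted p = 0.0460 to 0.547). It passed in 1 of these 23 fits, that without control 4°C mouse 4, the highest of its group. Without the muscle-rich libraries it was 0.52 at 4°C and 0.61 at RT (limma, adjusted p = 0.773 and 0.743).

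The porins and Letm1 gave wider or smaller values between genotypes. Letm1 had 0.48 ± 0.27 at RT and -0.02 ± 0.29 at 4°C (limma, adjusted p = 0.951 and 0.997). The RT value included mouse 1 of the BAT-Mcu-KO group. Vdac1 had 0.15 ± 0.10 at RT and -0.10 ± 0.10 at 4°C (limma, adjusted p = 0.971 and 0.873). Vdac2 and Vdac3 lay between -0.08 and 0.12 in both comparisons.

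Whether the response to cold differed between genotypes was tested by the interaction of genotype and temperature. In limma 0 of the 9 genes were called, 0 also at an unadjusted p under 0.05, and 0 in edgeR and in DESeq2. Of all 14651 genes, 0 (0%) were called in limma and in edgeR and 28 (0.191%) in DESeq2, with 878 at an unadjusted p under 0.05 in limma. For Vdac1 the difference of the log2 changes was -0.25 ± 0.14, with an interval of -0.53 to 0.03, and for Letm1 it was -0.50 ± 0.39, with an interval of -1.32 to 0.31. For Slc8b1 it was 0.26 ± 0.23 and for Vdac3 -0.20 ± 0.13. The calls of Slc8b1 and Vdac3 in control mice and of Vdac1 in BAT-Mcu-KO mice are therefore not shown to differ between genotypes, nor to be alike.

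The spread between mice of a group differed widely among the 9 genes. The coefficient of variation in control RT mice was 5.64% for Vdac1, 7.04% for Smdt1 and 7.97% for Vdac2, and 34.1% for Letm1 in spite of its high count. Letm1 and Micu2 deviated together. Over the 23 mice, the Pearson r of their log2 deviations from group means was 0.86, the highest of the 36 pairs of these genes, whose median was 0.03. Micu2 was 389 in BAT-Mcu-KO RT mouse 1 against 165 to 208 in the other 5, and the same mouse had the high Letm1 count. Control 4°C mouse 1 and BAT-Mcu-KO 4°C mouse 6 were the lowest of their groups in both genes, with Micu2 at 107 and 117. Among the porins r was 0.63 for Vdac1 and Vdac3, 0.53 for Vdac1 and Vdac2 and 0.43 for Vdac2 and Vdac3. Smdt1 had values of like size with Vdac3 (0.54) and Vdac1 (0.40). Letm1 and Vdac2 had the lowest value, at -0.49.

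**Figure D5:**
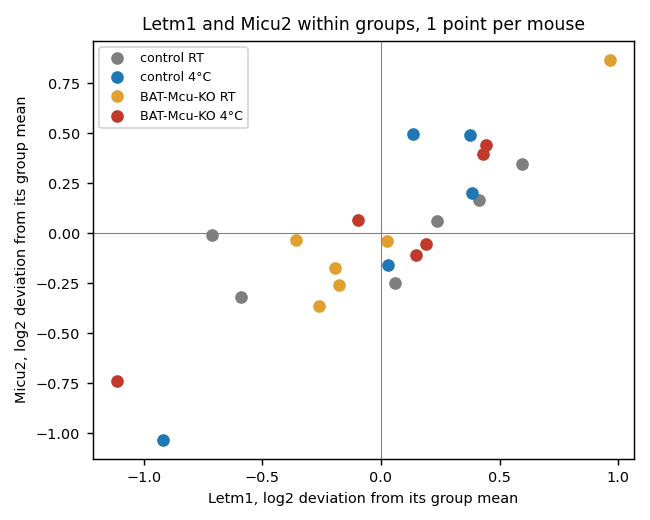
Deviation of Micu2 (vertical axis) against that of Letm1 (horizontal axis) from the mean of the group, both in log2(normalized count + 1), 1 point for each of 23 mice, coloured by group. The points rise together (r = 0.86), with BAT-Mcu-KO RT mouse 1 at the upper end and control 4°C mouse 1 and BAT-Mcu-KO 4°C mouse 6 at the lower end.

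Part of these deviations followed a common axis. The first principal component within groups held 17.0% of the variance over 9531 genes, and its loading had an r of 0.48 with log2 transcript length and of 0.04 with GC content across genes. Vdac2 followed the component with an r of -0.82, Vdac3 with -0.68, Vdac1 with -0.59 and Smdt1 with -0.57, and Letm1 with 0.56 and Mcu with 0.47. The value was lower in size for Micu2 (0.37), Slc8b1 (0.20) and Ccdc109b (-0.10). Genes share libraries here, and the part of this axis in the differences between mice was not tested.

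The genes whose deviations were most like those of each of the 9 were found among 9531 genes with a mean count of 50 or more, over the 23 mice. For Letm1 these were Afg3l2 (r = 0.96), which encodes a subunit of the m-AAA protease of the inner membrane, and Lrrc24 (0.95). For Micu2 they were Map2k2 (0.96) and Mlf2 (0.94). For Vdac1 they were the glycolytic enzyme gene Tpi1 (0.85) and Pdhb (0.83), which encodes a subunit of pyruvate dehydrogenase. Vdac2 was closest to Cdc42 (0.88) and Psmd8 (0.86), and Vdac3 to Mrpl51 (0.85) and Park7 (0.82). Smdt1 was closest to Dbi (0.81) and Reep5 (0.77). For the genes with lower counts the values were lower, at 0.76 for Mcu with Arhgef2 and 0.75 with Trim2, 0.70 for Slc8b1 with Pbld2 and 0.67 with Usp32, and 0.70 for Ccdc109b with Gm5436 and 0.66 with Ccdc32. For Pbld2, closest to Slc8b1 within groups, the differences between groups had the signs of those of Slc8b1. It is a picked example and no test of Slc8b1, and such values are not given here for Usp32. The log2 fold change of Pbld2 with cold was -1.81 ± 0.20 in control mice (limma, adjusted p = 4.5e-08) and -0.91 ± 0.19 in the BAT-Mcu-KO (adjusted p = 3.2e-04, limma). Between genotypes it was 1.09 ± 0.20 higher at 4°C (limma, adjusted p = 0.0201).

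Promoter windows are shown for the gene that rose with cold in both genotypes and for the uniporter gene with the highest level. RefSeq windows of 250 bases before to 50 after the start (GRCm38.p6) were matched for 6 of the 9 genes, in 7 windows. Slc8b1, Vdac2 and Vdac3 were not matched. The start used is that of RefSeq, which for Smdt1 lies inside the GENCODE span given above and not at its first base. Both strands were searched for the cyclic AMP response element TGACGTCA, for its core TGACG, for CCAAT, for GGGCGG and for the nuclear receptor motif TCAAGGTCA. The core overlaps the full element. The 250 bases before the start are given below in the direction of the gene, with CCAAT and the response element or its core in capitals.

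Letm1, chr5:33782718-33782967, minus strand: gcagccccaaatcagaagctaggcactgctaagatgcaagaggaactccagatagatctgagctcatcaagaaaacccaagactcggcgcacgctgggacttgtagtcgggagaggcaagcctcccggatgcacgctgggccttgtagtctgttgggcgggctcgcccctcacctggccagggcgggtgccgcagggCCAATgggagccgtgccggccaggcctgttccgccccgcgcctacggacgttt

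Smdt1, chr15:82345796-82346045, plus strand: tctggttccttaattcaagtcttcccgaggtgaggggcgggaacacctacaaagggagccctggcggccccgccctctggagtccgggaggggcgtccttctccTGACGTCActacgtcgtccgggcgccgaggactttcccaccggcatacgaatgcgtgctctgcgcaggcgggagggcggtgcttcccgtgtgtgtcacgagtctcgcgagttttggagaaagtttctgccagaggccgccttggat

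The Smdt1 window held 1 full element, as did 1.79% of 32851 promoter windows, and Smdt1 was not called for cold. The Letm1 window held 1 CCAAT, as did 37.4% of windows, and no core of the element in these letters. The first Vdac1 window held 1 core, found in 20.8% of windows. The Letm1 window held 3 and the Smdt1 window 4 matches to GGGCGG, found in 35.7% of windows. TCAAGGTCA, found in 0.423% of windows, was in 0 of the 7. A match in these letters is a description of the window.

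The wider calcium machinery was followed in 5 lists, of which 56 genes were in the table. With cold 26 of the 56 changed in control mice (17 higher, 9 lower) beside 46.0% of all genes, and 29 in the BAT-Mcu-KO (18 higher, 11 lower) beside 43.3%. Without the muscle-rich libraries 26 of the 56 were called in control mice (16 higher, 10 lower) beside 38.5% of all genes, and 21 in the BAT-Mcu-KO (14 higher, 7 lower) beside 32.1%. Over the 56, the median log2 fold change was 0.10 for controls and 0.07 for the BAT-Mcu-KO. Cold called 24 of the 56 in both genotypes in 1 direction. The share of all genes called in this way was not computed, so this count is a description only. Genotype called 0 of the 56 at RT and 0 at 4°C in limma, in edgeR and in DESeq2, with 2 (Slc25a12 and Slc25a24) and 5 (Hk2, Idh3g, Slc25a24, Slc8a1 and Tomm70a) at an unadjusted p under 0.05 in limma. Of all 14651 genes, 754 at RT and 1023 at 4°C had an unadjusted p under 0.05 in limma. Genes of the lists that are named without a measured value here or below were named after their values were seen.

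Of the 9 regulators of the uniporter, cold changed 3 in each genotype, Slc25a23 and Micu3 in both, with Afg3l2 (higher) in control and Spg7 (lower) in BAT-Mcu-KO mice. That is 33.3% of the list, below the share of all genes called. The calls of Afg3l2 and Spg7 were lost without the muscle-rich libraries. Slc25a23, a calcium-binding ATP-Mg/phosphate carrier described to assist uptake, fell in both genotypes. Its mean was 345 ± 41.4 at RT and 190 ± 38.7 at 4°C among controls, and 320 ± 74.2 and 164 ± 27.1 among the BAT-Mcu-KO (SD, with n as above). On the log2 scale this was -0.87 ± 0.16 and -0.94 ± 0.15 (limma, adjusted p = 6.0e-05 and 1.3e-05). Micu3, a relative of Micu2, rose by 0.33 ± 0.08 and 0.34 ± 0.08 (limma, adjusted p = 0.00257 and 0.00142). Micu2 itself was not called. Of 4 antiporters and relatives, cold changed 1 in control mice, Letm2, and 3 in BAT-Mcu-KO mice, Letm2 and Slc8a1 (both lower) and Ghitm (higher). Letm2 alone was called in each when the muscle-rich libraries were left out. Letm2, a relative of Letm1, fell by 1.44 ± 0.29 and 1.26 ± 0.28 on the log2 scale in control and BAT-Mcu-KO mice (limma, adjusted p = 2.6e-04 and 6.6e-04). Its mean count went from 43.0 to 15.1 and from 49.8 to 18.7, while that of Letm1 rose.

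Of 22 genes at contact sites or partners of the porins, 12 changed with cold in control mice (54.5%, beside 46.0% of all genes) and 13 in the BAT-Mcu-KO (59.1%, beside 43.3%). With the fit kept to the 9531 genes with a mean count of 50 or more, 56.9% and 53.2% were called. The shares of this list are near these. In both genotypes, 8 were higher, Hk1, Hk2, Hspa9, Bax, Bcl2l1, Mcl1, Pdzd8 and Ppif. The lower genes included Itpr1, Itpr2 and Tspo in both, and Slc25a4 in the BAT-Mcu-KO. When the muscle-rich libraries were left out, 14 were called in control mice and 11 in the BAT-Mcu-KO, beside 38.5% and 32.1% of all genes. Slc25a4 and Fundc1 (both lower) were added in control mice, and Slc25a4 and Tspo were lost in the BAT-Mcu-KO. Ppif, which encodes cyclophilin D of the permeability transition pore, was 1241 ± 135 in control RT and 3151 ± 412 in control 4°C mice. It rose by 1.34 ± 0.10 on the log2 scale (limma, adjusted p = 1.0e-10) and by 1.41 ± 0.10 in BAT-Mcu-KO mice (adjusted p = 2.1e-11, limma). Hk2, a hexokinase that binds VDAC at the outer membrane, rose by 1.37 ± 0.17 and 0.93 ± 0.16 in these genotypes (limma, adjusted p = 3.6e-07 and 4.5e-05). Itpr2, a calcium release channel of the endoplasmic reticulum, fell by 1.09 ± 0.12 and 0.96 ± 0.11 on the log2 scale (limma, adjusted p = 3.2e-08 and 1.3e-07). Ppif, Hk2 and Itpr2 were picked from this list for their small p for cold. That their changes were larger than those of the porins, which were not picked so, therefore does not compare the list with the porins. Of the porins, Vdac1 and Vdac3 were called in 1 genotype each.

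The list of import and assembly in the outer membrane, through which porins are inserted, held 12 genes. With cold 8 changed in control mice (66.7%, beside 46.0% of all genes) and 7 in the BAT-Mcu-KO (58.3%, beside 43.3%). Among the 9531 genes with a mean count of 50 or more, 56.9% and 53.2% were called. The higher genes were Tomm5, Tomm20, Tomm40, Tomm70a and Mtx2 in both genotypes, the lower ones Tomm34 and Tomm40l in both and Samm50 in control mice. Without the muscle-rich libraries 7 and 4 were called, beside 38.5% and 32.1% of all genes. Samm50 was then lost in control mice and Tomm20, Tomm40 and Mtx2 in the BAT-Mcu-KO. Tomm70a, an import receptor, rose by 0.70 ± 0.12 in controls and by 0.48 ± 0.11 in the BAT-Mcu-KO (limma, adjusted p = 2.6e-05 and 0.00117). Mtx2, a metaxin, rose by 0.66 ± 0.14 and 0.39 ± 0.13 (limma, adjusted p = 3.4e-04 and 0.0187). Tomm40, the pore of the import complex, rose by 0.88 ± 0.19 and 0.48 ± 0.18 (limma, adjusted p = 4.8e-04 and 0.0354). In BAT-Mcu-KO mice the calls of Mtx2 and Tomm40 were lost without the muscle-rich libraries (0.32 and 0.36, adjusted p = 0.177 and 0.269 in limma) and with quantile normalization (0.23 and 0.34, adjusted p = 0.164 and 0.142 in limma). That of Tomm40 was also lost with scaling to the 75th percentile (0.43), without the variance trend (0.48) and without any 1 of 9 BAT-Mcu-KO libraries.

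Of 9 enzymes and carriers regulated by calcium, 2 rose with cold in control mice, 3 with Idh3a in BAT-Mcu-KO mice, and 0 fell in limma. That is 22.2% and 33.3% of the list, below the 46.0% and 43.3% of all genes. With the muscle-rich libraries left out, Pdp1 was called higher in BAT-Mcu-KO mice (0.65, adjusted p = 0.00432 in limma) and Idh3a was not. The carriers Slc25a24 and Slc25a25, which like Slc25a23 bind calcium on the outer face of the inner membrane, rose in both genotypes. Slc25a24 had means of 49.0 ± 11.5 at RT and 145 ± 23.9 at 4°C among controls and of 36.4 ± 7.05 and 98.0 ± 31.9 among the BAT-Mcu-KO, log2 fold changes of 1.57 ± 0.20 and 1.37 ± 0.19 (limma, adjusted p = 7.3e-07 and 2.9e-06). Slc25a25 had 70.2 ± 30.3 and 369 ± 227, and 61.2 ± 26.9 and 463 ± 253, log2 fold changes of 2.31 ± 0.39 and 2.85 ± 0.37 (limma, adjusted p = 2.3e-05 and 6.8e-07). These relatives thus moved opposite to Slc25a23. Pdp1, Ogdh and the 3 subunit genes of the calcium-sensitive isocitrate dehydrogenase, Idh3a, Idh3b and Idh3g, were not called in control mice.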

How the data were processed

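RNA of BAT from 23 mice was sequenced as 25-base paired-end Smart-seq2 libraries. The authors aligned reads to mm10 with STAR 2.4.0j, counted unique exonic reads against GENCODE M7 irrespective of strand with HTSeq, kept genes that reached 8 reads in 6 samples or more, and deposited a signal, the count divided by the DESeq2 size factor. A deposited table of the authors' fold changes and p-values was not used. Groups and replicate numbers came from the labels, which do not tie a number to a litter or day. Whole reads were recovered from the steps between values.

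Differential expression was tested with limma 3.58.1 (variance trend) on log2(normalized count + 1), with 4 group means over all 23 mice and Benjamini-Hochberg adjustment over 14651 genes, and called at an adjusted p under 0.05. A fold change on this scale understates the change of low genes. The fit was tested on simulated data. Intervals are 95%. The study's methods used DESeq2; DESeq2 1.42.0 and edgeR 4.0.16 on recovered reads were alternatives, as were the pseudocount, scaling, filter, trend, replicate number as a block and leaving out each mouse. Lengths and positions came from GENCODE M21 on GRCm38. Levels between genes were compared per kilobase of annotated exon. The named genes are the 9, up to 3 genes of each list with the smallest p for cold in control mice among those called in both genotypes in 1 direction, any listed gene called by genotype, and the 2 genes most like each of the 9 by Pearson r, plus a few listed genes chosen after their values were seen. Genes and lists were chosen with earlier results of these data known. Slc8a2, Slc8a3, Tomm6 and Slc25a13 were not analysed here. Values of some listed genes are not reported here. The number of sample columns left out was 0.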

Additional observations from a re-analysis of the deposited data

Results flagged for a closer look

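In 5 of 36 sets of 1 gene and 1 group, 1 mouse stood apart from the others by Dixon's test at 95%, where chance gives about 1 in 20. Mcu was 15.2 in BAT-Mcu-KO RT mouse 4, against 36.2 to 42.4 in the other 5 mice. Micu2 was 389 in BAT-Mcu-KO RT mouse 1, against 165 to 208, and Letm1 was 6275 in the same mouse, against 2510 to 3273. Slc8b1 was 137 in control RT mouse 3, against 97.3 to 104. Ccdc109b was 12.4 in control 4°C mouse 3, against 2.02 to 4.81, at counts of a few reads.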

How the results depend on the processing

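The 5 muscle-rich libraries and the correction for transcript length were chosen as alternatives after seeing the data. Of the 9 genes, the number called for cold in control mice was 3 to 3 when any mouse was left out and 1 without the muscle-rich libraries. It was 4 with quantile normalization, with scaling to the 75th percentile and with the correction for length (45.7%, 47.3% and 46.7% of all genes). For cold in BAT-Mcu-KO mice it was 1 to 2 when a mouse was left out, and 1 with scaling to the 75th percentile (43.3% of all genes), 1 without the variance trend (42.5%) and 1 without the muscle-rich libraries. With quantile normalization it was 2 (43.7% of all genes), Vdac1 and Smdt1 in place of Letm1. With the correction for length it was 3 (44.9% of all genes), Vdac2 being added. For genotype at 4°C it was 1 to 2 when a mouse was left out, the added gene being Slc8b1. Over 12 other settings Mcu kept its genotype calls at -1.74 to -1.42 (RT) and -1.69 to -1.40 (4°C), and Letm1 its call for cold in control mice at 1.02 to 1.20. The replicate numbers were not shown to pair the mice (mean r of same-numbered deviations -0.16 to 0.21). The highest mean was between the cold groups, where r was 0.0042 to 0.43 and 4 of 5 pairs exceeded 0.1. There 2 of 5 mice were most like the mouse of their own number. A batch shared by number was not tested. With the number as a replicate block no call of the 9 genes changed, and Ghitm, Idh3a and Pdp1 became called for cold in control mice (limma, adjusted p = 0.0333, 0.0206 and 0.0342).

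Per kilobase of the longest transcript, levels in control RT mice were 38.1 for Mcu, 79.6 for Micu2, 2740 for Smdt1, 36.6 for Slc8b1, 461 for Letm1, 1151 for Vdac1, 1497 for Vdac2 and 125 for Vdac3. The values that changed sign were all uncalled log2 fold changes, and the cause was not tested. With quantile normalization these were Mcu for cold in BAT-Mcu-KO (0.16), Vdac2 for cold in both genotypes (-0.0034 for control, -0.042 for BAT-Mcu-KO) and for genotype at RT (-0.017), and Ccdc109b for the interaction (-0.068). With scaling to the 75th percentile they were Letm1 (0.0055) and Vdac2 (0.0055) for genotype at 4°C and Vdac2 for genotype at RT (-0.022) and the interaction (0.028). With the correction for length they were Mcu for cold in BAT-Mcu-KO (0.026), Smdt1 for cold in both genotypes (0.015 for control, 0.021 for BAT-Mcu-KO) and for genotype at RT (0.042), Letm1 for genotype at 4°C (0.0025), and Ccdc109b for the interaction (-0.055). Under the replicate block they were Letm1 for genotype at 4°C (0.11) and Ccdc109b for the interaction (-0.13). With DESeq2 and edgeR they were Mcu for the interaction (-0.045 and -0.040) and Ccdc109b for cold in BAT-Mcu-KO (0.052 and 0.053) and for genotype at 4°C (0.13 and 0.13), the latter also with a pseudocount of 10 (0.015), and for the interaction with one of 0.5 (-0.093). Without the muscle-rich libraries they were Mcu (-0.14), Slc8b1 (-0.089) and Vdac2 (0.019) for the interaction, Micu2 (0.065) and Letm1 (0.15) for genotype at 4°C, and Vdac1 (-0.0072) and Vdac2 (-0.063) for genotype at RT.

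When single mice were left out, signs changed within these ranges. For cold they were -0.14 to 0.088 for Mcu in control mice, and in BAT-Mcu-KO mice -0.22 to 0.086 for Mcu, -0.21 to 0.053 for Micu2, -0.056 to 0.025 for Smdt1 and -0.61 to 0.12 for Ccdc109b. For genotype at RT they were -0.066 to 0.012 for Smdt1 and -0.024 to 0.033 for Vdac2. At 4°C they were -0.46 to 0.27 for Ccdc109b, -0.25 to 0.20 for Letm1 and -0.046 to 0.0015 for Vdac2. For the interaction they were -0.17 to 0.14 for Mcu, -0.23 to 0.50 for Ccdc109b and -0.056 to 0.0010 for Vdac2. The fewest reads lay behind Ccdc109b, with 0 to 19 a mouse, and Mcu in BAT-Mcu-KO mice, with 17 to 57.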
